A study of Arabidopsis thaliana with 6 samples.

Results

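Developing seeds of the Arabidopsis thaliana lines ar21 and i4g1 were compared with each other by RNA sequencing. The comparison took the 2 ar21 and the 2 i4g1 libraries among the 6 libraries of the study, and the other 2, from wild type (WT), are given beside them. All plants were of the strain Columbia-0 and grew in long days, and each library holds pooled seeds dissected from siliques 13 days after flowering. The labels give the lines only as ar21 and i4g1, with no allele, insertion or dose of a gene. From knowledge of the study, both are taken here as lines with a lesion in the gene eIFiso4G1. The submitters call the 2 samples of each line biological replicates and say nothing of separate plants or growth batches, so p-values measure the spread between these samples only. Values are normalised counts, which are reads divided by 1 size factor per library. Loci with a mean of at least 10 over the 6 libraries were tested, 15591 in all, on log2(normalised count + 1), the scale of every log2 difference below. Differences are ar21 minus i4g1, with the standard error of a limma fit over all 6 libraries, and a locus is called where the Benjamini-Hochberg adjusted p is under 0.05.

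The product of eIFiso4G1 is the scaffold of a plant form of the complex that loads ribosomes onto capped mRNA. It joins the cap-binding protein, the helicase eIF4A and the poly(A)-binding protein, and its close relative eIFiso4G2 and the larger EIF4G serve as scaffolds in the same step. Seeds of this age are filling: the green embryo takes up sucrose from the mother plant and builds oil and storage proteins before it dries.

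The 4 mutant libraries held 4972656 to 8435759 reads, of which 3556647 to 8106414 remained without the nuclear 18S rRNA locus. The lines also differed in what the reads came from. The 18S locus took 30.0% and 19.8% of the reads in the ar21 libraries but 11.5% and 3.90% in the i4g1 libraries, against 40.8% and 60.7% in WT. The seed identity of all 4 libraries was plain: the 7 storage protein genes of the list that are in the table summed to 105677 and 119055 normalised counts in ar21 and 139101 and 106543 in i4g1. Library pairs of 1 line were at least 2-fold apart for 1.302% of the loci in ar21, 2.95% in i4g1 and 5.28% in WT. In pooled seeds, fewer cells of a type and less RNA per cell cannot be told apart.

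The gene eIFiso4G1 (AT5G57870, TAIR10.1 chr5:23439498-23443815, + strand) was read at a higher level in ar21 than in i4g1. Its normalised counts were 116 and 123 in ar21 1 and 2, 24.5 and 45.6 in i4g1 1 and 2, and 368 and 454 in WT 1 and 2. Every ar21 library lay above both i4g1 libraries and below both WT libraries. The difference was 1.80 ± 0.24 (log2, SE, adjusted p = 0.0108). The call was lost without ar21 1 (1.85, adjusted p = 0.118) and without ar21 2 (1.76, adjusted p = 0.097), and it held without either i4g1 library. Neither neighbour shared the step. AT5G57860, a gene on one side, had 59.3 and 52.7 in ar21 against 68.2 and 52.9 in i4g1, and MPS1 (AT5G57880), on the other, had 10.05 and 12.4 against 8.74 and 14.8.

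The related scaffolds had overlapping values in the lines. eIFiso4G2 (AT2G24050) had 201 and 231 normalised counts in ar21 and 246 and 220 in i4g1, a difference of -0.11 ± 0.14 (adjusted p = 0.897). EIF4G (AT3G60240) had 1070 and 1150 in ar21 and 1033 and 1252 in i4g1, a difference of -0.04 ± 0.13 (adjusted p = 0.973). Of the 15 genes of the cap-binding complexes and poly(A)-binding proteins, eIFiso4G1 was the 1 called, and the median difference of the list was -0.0043, beside -0.00085 over all loci tested.

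**Figure D1:**
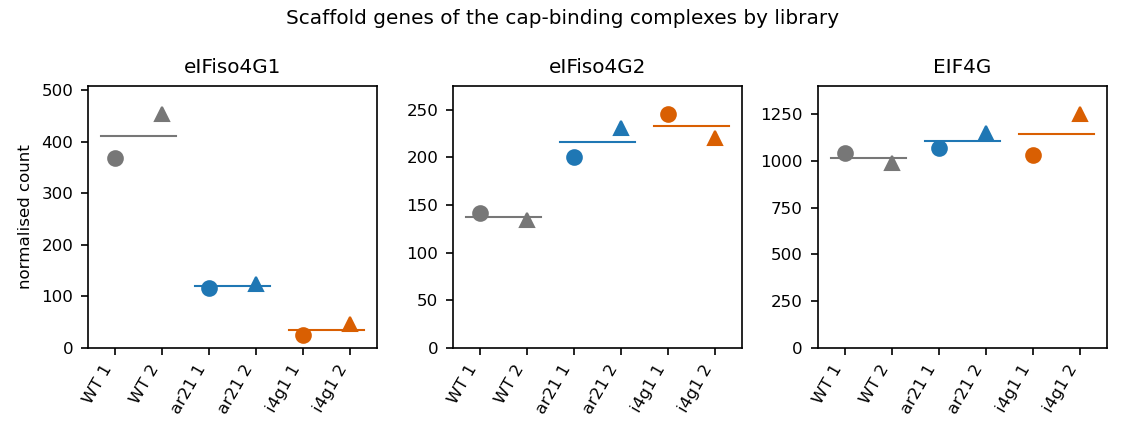
Normalised counts (linear axes from 0) of the 3 scaffold genes in each library, with circles for replicate 1, triangles for replicate 2 and a line at the mean of each line. eIFiso4G1 steps down from WT to ar21 (116 and 123) to i4g1 (24.5 and 45.6), while the points of ar21 and i4g1 overlap for eIFiso4G2 and EIF4G.

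Across the table, 44 loci were called (0.282% of 15591), 18 higher in ar21 (0.115%) and 26 lower in ar21 (0.167%). None of the 44 overlapped between the lines, a condition that 42.4% of all loci met in either direction. By size, the loci higher in i4g1 were led by the transposable element gene AT5G35935, pEARLI 1, PR1, GRP3S, PR5 and COR15A. They also held Rubisco small subunit genes (RBCS-1B, RBCS-3B) and carbonic anhydrases (CA1, CA2). Of these loci, AT5G35935, pEARLI 1 and AT1G29660 were under 10 in every WT and ar21 library. They reached the level for testing through i4g1 alone, so the filter itself favoured a gap towards i4g1 in them. Those higher in ar21 were led by RBCL and MATR of the organelle genomes, the lectin gene AT3G21380, COX2 and eIFiso4G1. The differences ran from 0.65 to 5.61 in size among the 26 and from 0.77 to 2.53 among the 18. On whole reads recovered from the table, the quasi-likelihood test of edgeR called 58 loci higher (0.372%) and 67 lower (0.43%) in ar21, all 44 among them. Scaling to the total without 18S and organelle reads turned the split of 18 higher and 26 lower into 19 and 16. At an unadjusted p under 0.05, limma had 724 loci higher (4.64%) and 650 lower (4.17%) in ar21. The count of calls moved strongly when 1 library was left out: limma called 0 higher and 2 lower without ar21 1 (335 and 319 at an unadjusted p under 0.05), 2 and 1 without ar21 2, 2 and 4 without i4g1 2, and 89 and 69 without i4g1 1.

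**Figure D2:**
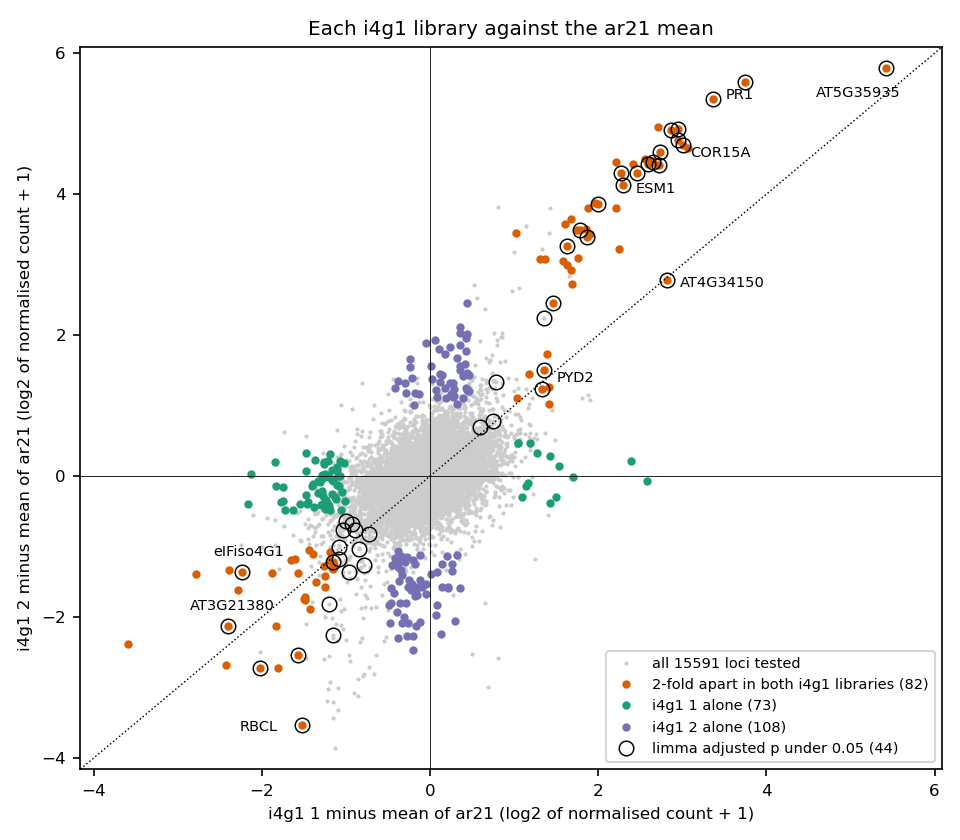
Each point is 1 of the 15591 loci, placed by i4g1 1 minus the ar21 mean (x axis) and i4g1 2 minus the ar21 mean (y axis), both in log2 of the normalised count + 1, with the dotted line where both i4g1 libraries give the same difference. Loci above ar21 in both i4g1 libraries mostly lie over the dotted line, that is, further from ar21 in i4g1 2, while AT4G34150 and PYD2 lie close to it.

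The loci higher in i4g1 fell into a large set in which i4g1 2 stood well above i4g1 1 and a small set in which the i4g1 libraries were less than 2-fold apart. This split was made after the values were seen. In 17 of the 26, i4g1 2 was at least 2-fold above i4g1 1, and the ratio of the 2 libraries ran from 2.91 to 4.17 with a median of 3.60. In the other 9 the ratio ran from 0.93 to 2.00 with a median of 1.11, and RBCS-3B, at the upper end, fell just short of the dividing line. Over all loci i4g1 2 was above i4g1 1 by any amount in 48.3%, and by at least 2-fold in 280 of 15591. In all 17, both WT libraries lay below both i4g1 libraries, and in 13 of them both WT libraries lay above both ar21 libraries. These loci were picked for a gap between the lines. The share over all loci was not counted for the position of WT, here or below, so these counts cannot be judged against it. Scaled to the total without 18S and organelle reads, 12 of the 17 and 4 of the 9 stayed called. AT1G29660, TGG2, LP1, AT1G09310 and CT-BMY of the 17 did not. Nor did ATEXPA9, FLA15, NIT1, ANNAT1 and COR47 of the 9. All 26 kept their sign without i4g1 2, with differences from -5.42 to -0.60, but 3 of the 17 (PR1, COR15A and ESM1) and 1 of the 9 (AT4G34150) were then still called.

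Among the 17, PR1 (AT2G14610, chr2:6241640-6242541, - strand), the marker gene of salicylic acid defence, had 38.2 and 22.0 normalised counts in ar21, 308 and 1218 in i4g1, and 98.7 and 53.2 in WT. The difference was -4.35 ± 0.49 (adjusted p = 0.00685). PR5, which encodes a thaumatin-like defence protein, had 20.1 and 11.7 in ar21 against 118 and 493 in i4g1 (-3.89 ± 0.58, adjusted p = 0.0166). Among the 4 mutant libraries both genes were lowest in ar21 2 and highest in i4g1 2. For PR1 both WT libraries lay above both ar21 libraries. PR5 had 31.7 and 11.2 in WT, so WT 1 lay above both ar21 libraries and WT 2 below both. LOX2, a chloroplast lipoxygenase of jasmonate synthesis, had 12.1 and 19.0 in ar21, 107 and 391 in i4g1, and 39.0 and 14.001 in WT. Its difference of -3.67 ± 0.54 passed the test (adjusted p = 0.0166).

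A pair of genes of glucosinolate defence, the mustard oil system of this plant family, was also lower in ar21. ESM1, which modifies how glucosinolates are broken down, had 31.1 and 30.7 in ar21 and 156 and 557 in i4g1, with 57.3 and 67.2 in WT (-3.21 ± 0.41, adjusted p = 0.0108). TGG2, a myrosinase that cuts glucosinolates, had 6.03 and 9.52 in ar21 and 33.2 and 124 in i4g1 (-2.93 ± 0.53, adjusted p = 0.0441). TGG2 was named after its values were seen. In both genes the lower i4g1 library lay well above the higher ar21 library.

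Leaf enzymes of carbon fixation made up another part of the 17. CA1, the chloroplast carbonic anhydrase, had 24.1 and 16.8 in ar21 and 115 and 415 in i4g1 (-3.38 ± 0.45, adjusted p = 0.0108), and WT had 32.9 and 22.4. CA2, a second carbonic anhydrase, had 12.1 and 5.12 in ar21 and 55.1 and 194 in i4g1 (-3.55 ± 0.52, adjusted p = 0.0166). RBCS-1B, 1 of the genes for the small subunit of Rubisco, had 14.1 and 11.7 in ar21, 82.2 and 296 in i4g1, and 23.2 and 30.8 in WT (-3.51 ± 0.45, adjusted p = 0.0108). In each of these 3 genes both i4g1 libraries lay above all other libraries.

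The other genes of the 17 had various roles. GRP3S, a short glycine-rich wall protein, had 6.03 and 4.39 in ar21 and 46.3 and 185 in i4g1 (-3.93 ± 0.52). pEARLI 1, of a lipid-transfer-like family, had 0 and 0.73 in ar21 and 16.6 and 62.5 in i4g1 (-4.67 ± 0.77). The ar21 values of pEARLI 1 are 0 reads and 1 read, so its fold is poorly fixed. AT1G29660, annotated as a GDSL lipase, had 1.00 and 0.73 in ar21 and 13.98 and 47.3 in i4g1 (-3.85 ± 0.69). AT2G25510, with no annotated function in the table, had 20.1 and 18.3 in ar21 and 96.1 and 394 in i4g1 (-3.28 ± 0.47). LP1, the lipid transfer protein gene LTP1, and AT1G09310, of unknown function, were named after their values were seen, and had differences of -2.64 ± 0.47 and -2.62 ± 0.44. The cold genes COR15A, COR15B and CT-BMY complete the 17.

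In the set of 9, the i4g1 libraries were under 2-fold apart. AT5G35935, annotated as a transposable element gene (chr5:14083388-14089891, - strand), had 0 and 0 reads in ar21, 48 and 125 reads in i4g1, and 1.22 and 0 normalised counts in WT. Its normalised counts of 41.9 and 54.2 in i4g1 put it at least 18.5-fold above ar21, taking 3 reads per ar21 library as the floor. The nearby gene AT5G35930 had 42.2 and 43.9 in ar21 against 41.9 and 42.1 in i4g1. The locus was at or near 0 in the ar21 and WT libraries and present in both i4g1 libraries. It was not called without i4g1 1 (adjusted p = 0.127) or without i4g1 2 (adjusted p = 0.305).

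AT4G34150 (chr4:16354857-16357460, + strand), which codes for a protein with a calcium-dependent lipid-binding domain, had 11.1 and 13.9 in ar21, 93.5 and 90.7 in i4g1, and 81.7 and 50.4 in WT. Its difference of -2.80 ± 0.27 had the lowest adjusted p of the table (0.00411). PYD2, a dihydropyrimidinase of uracil breakdown, had 35.2 and 39.5 in ar21, 97.0 and 108 in i4g1, and 106 and 89.6 in WT (-1.43 ± 0.19, adjusted p = 0.0108). The expansin gene ATEXPA9, for a protein that loosens cell walls, had 52.2 and 55.6 in ar21, 137 and 128 in i4g1, and 107 and 67.2 in WT (-1.28 ± 0.22, adjusted p = 0.0344). In these 3 genes, named after their values were seen, the WT mean was nearer to i4g1 than to ar21. In the other 23 of the 26 it was nearer to ar21. For ATEXPA9 it lay about midway, with ar21 minus WT at -0.646 and i4g1 minus WT at 0.633 (log2), and WT 2 was nearer to ar21. ANNAT1, among the 23, was also close to midway (-0.868 and 0.932).

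The set of 9 also held FLA15, NIT1 and ANNAT1. FLA15, a fasciclin-like arabinogalactan protein of the cell surface, had 1561 and 1832 in ar21 and 2831 and 2907 in i4g1 (-0.76 ± 0.13, adjusted p = 0.0337). NIT1, a nitrilase, had 467 and 436 in ar21 and 683 and 733 in i4g1 (-0.65 ± 0.12, adjusted p = 0.0428). ANNAT1, an annexin that binds membranes with calcium, had 43.2 and 24.9 in ar21 and 85.6 and 159 in i4g1 (-1.80 ± 0.31, adjusted p = 0.0348). WT lay below both lines for FLA15 and NIT1. These 3 genes too were named after their values were seen. RBCS-3B and COR47 complete the set of 9.

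**Figure D3:**
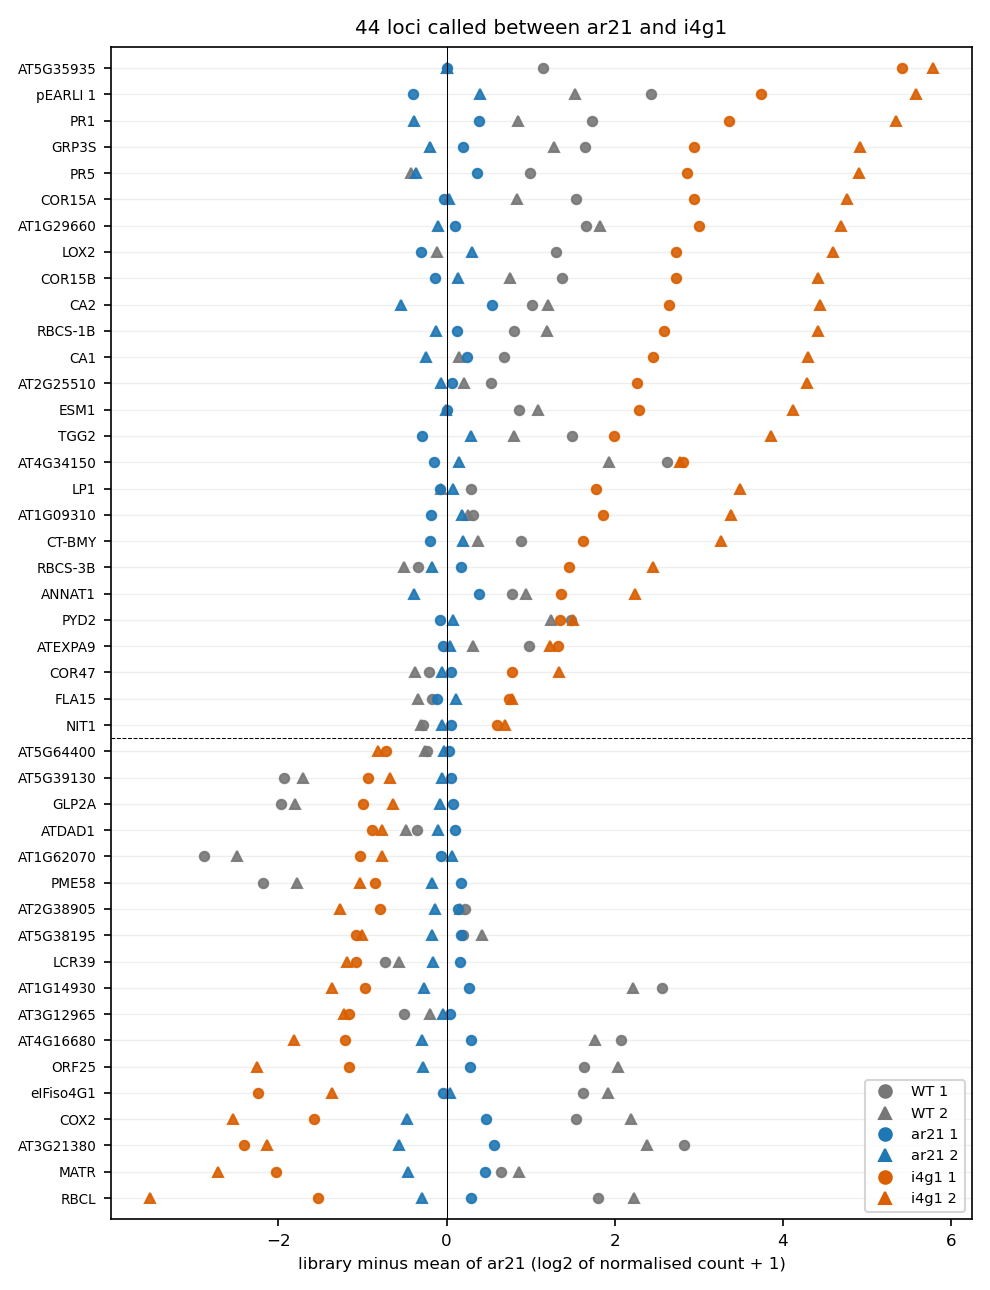
Each row is 1 of the 44 called loci and each symbol 1 library, placed by its log2(normalised count + 1) minus the mean of the ar21 libraries, with the dashed line between the 26 loci lower and the 18 loci higher in ar21. In the upper rows the i4g1 triangles (replicate 2) lie to the right of the i4g1 circles, except for AT4G34150 and ATEXPA9, where the order is turned by a small step, and the symbols nearly meet for FLA15, NIT1 and PYD2.

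Of the 18 loci higher in ar21, 16 had i4g1 libraries under 2-fold apart, and 4 came from the organelle genomes. The largest nuclear difference was that of AT3G21380 (chr3:7528181-7530686, + strand), annotated as a mannose-binding lectin. It had 110 and 49.8 in ar21, 13.1 and 16.1 in i4g1, and 531 and 389 in WT (2.27 ± 0.31, adjusted p = 0.0108). The lines thus stepped down from WT through ar21 to i4g1, as for eIFiso4G1. BGLU19, a beta-glucosidase gene close by, had 224 and 132 in ar21 against 87.4 and 75.5 in i4g1 and did not pass the test (1.07, adjusted p = 0.117).

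Several other genes had the same order. AT4G16680, annotated as a P-loop nucleoside triphosphate hydrolase, had 85.4 and 57.1 in ar21, 29.7 and 19.1 in i4g1, and 299 and 241 in WT (1.51 ± 0.25, adjusted p = 0.0331). AT1G14930, of the polyketide cyclase and lipid transport family, had 129 and 88.6 in ar21, 54.2 and 40.8 in i4g1, and 639 and 501 in WT (1.17 ± 0.21, adjusted p = 0.0428). AT5G38195, of the lipid-transfer family, had 193 and 152 in ar21 and 80.4 and 84.6 in i4g1 (1.05 ± 0.16). AT2G38905, of a family responsive to low temperature and salt, had 446 and 366 in ar21 and 233 and 167 in i4g1 (1.03 ± 0.16). For the last pair WT lay at 196 and 230 and at 472 and 451, just above ar21. WT was above both lines in 10 of the 18.

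In 4 of the 18, both lines stood well above WT and ar21 stood highest. AT1G62070, with no annotated function in the table, had 3182 and 3473 in ar21, 1626 and 1951 in i4g1, and 447 and 588 in WT (0.90 ± 0.15, adjusted p = 0.0329). PME58, a pectin methylesterase gene known from seed coat mucilage, had 1128 and 890 in ar21, 555 and 489 in i4g1, and 219 and 291 in WT (0.94 ± 0.16, adjusted p = 0.0337). The germin-like genes GLP2A and AT5G39130 had 1363 to 1509 and 2899 to 3098 in ar21 against 718 to 919 and 1570 to 1874 in i4g1. They lie 4 genes apart in a family of near-identical copies, so reads may be shared between them. Both were named after their values were seen, as were ATDAD1 and AT5G64400.

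The other 4 nuclear loci had WT between the lines. LCR39, for a small cysteine-rich secreted protein, had 200 and 160 in ar21 and 83.9 and 78.1 in i4g1 (1.13 ± 0.17, adjusted p = 0.0166), with 107 and 120 in WT. AT3G12965, a non-coding RNA locus, had 106 and 99.5 in ar21 and 45.4 and 43.4 in i4g1 (1.19 ± 0.19, adjusted p = 0.0313). ATDAD1, a subunit of the enzyme that adds sugar chains to proteins in the endoplasmic reticulum, had 206 and 179 in ar21 and 103 and 112 in i4g1 (0.83 ± 0.15, adjusted p = 0.0472). AT5G64400 had 558 and 537 against 331 and 309 (0.77 ± 0.12, adjusted p = 0.0166), and its annotated span overlaps that of HEN4 over 720 bases. In all, 12 of the 44 loci overlap another annotated gene. None of those genes that were tested was itself called, and several, PUM9 among them, were not tested.

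Each i4g1 library was also set against both ar21 libraries without a test. The classes rest on the same values as the calls and are no separate support for them, and their counts moved with the settings. Loci counted as apart in both were those in which each i4g1 library was at least 2-fold (1 log2 unit) from both ar21 libraries on the same side. There were 82 of these, 50 above ar21 (0.321% of the loci tested) and 32 below (0.205%). Loci apart in 1 library alone were those in which the other i4g1 library lay within 0.5 log2 units of the ar21 mean. There were 73 for i4g1 1 (14 above, 0.0898%, and 59 below, 0.378%) and 108 for i4g1 2 (49 above, 0.314%, and 59 below, 0.378%). With the lines exchanged, 37 loci were apart in ar21 1 alone and 16 in ar21 2 alone. Without ar21 1 as a reference the counts were 135, 161 and 181 for both, i4g1 1 alone and i4g1 2 alone, and without ar21 2 they were 215, 138 and 171.

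The 50 loci above ar21 in both i4g1 libraries were graded between them. In 46 of the 50, i4g1 2 was the higher, in 39 by at least 2-fold. Over all loci it was the higher in 48.3%, and by at least 2-fold in 280 of 15591. In the 50, the excess over the ar21 mean was 4.02 times as large in i4g1 2 as in i4g1 1 (median, quartiles 3.04 and 4.55). Some of the 50, AZI1 among them, were under 10 in every WT and ar21 library and were tested through i4g1 alone. Of the 50, limma called 22 and edgeR 43. Those that limma did not call include AZI1, a gene of systemic defence priming, with 2.01 and 0.73 in ar21 and 13.98 and 69.9 in i4g1, and NIA2, a nitrate reductase, with 11.1 and 7.32 against 35.8 and 138. They also include GLP3, a germin-like gene, with 2.01 and 8.05 against 29.7 and 117, and GAD2, a glutamate decarboxylase, with 10.05 and 5.12 against 29.7 and 87.7. These 4 were picked after their values were seen, and edgeR gave adjusted p-values of 0.0168, 0.0217, 0.0173 and 0.0158 for them. With DESeq2 AZI1 (adjusted p = 0.0020) and GAD2 (adjusted p = 0.00168) passed. NIA2 (adjusted p = 0.333) and GLP3 (adjusted p = 0.194) did not. Of the 32 loci below ar21 in both libraries, 28 had i4g1 libraries under 2-fold apart, and i4g1 2 was the higher in 13.

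Of the 49 loci above ar21 in i4g1 2 alone, the 6 with the largest gaps include immune and light response genes. The disease resistance gene AT1G58602 had 10.05 and 6.59 in ar21, 11.4 in i4g1 1 and 49.0 in i4g1 2. NDF1, for a subunit of the plastid NDH complex, had 6.03, 7.32 and 8.74 in those 3 libraries and 32.1 in i4g1 2. The blue light receptor gene PHOT2 had 24.1, 28.5 and 35.8 against 109, and the immune transporter gene PEN3 had 35.2, 32.2 and 35.0 against 131. EFE, the last enzyme of ethylene synthesis, had 14.1, 18.3 and 21.8 against 65.1, and the glutaredoxin family gene AT1G64500 had 4.02, 5.12 and 6.12 against 21.7. None of the 49 was called by limma (16 at an unadjusted p under 0.05) or edgeR, with adjusted p from 0.128 to 0.253 in edgeR for these 6.

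Below ar21 in i4g1 2 alone were 59 loci, and 34 of them lie on the plastid genome. The 6 largest gaps were NDHA, PETD, RPS4, NDHG and PSBG of the plastid genome and the late seed protein gene ATECP31. PETD, a subunit of the cytochrome complex of photosynthesis, had 444 and 299 in ar21, 279 in i4g1 1 and 73.3 in i4g1 2. NDHA, of the plastid NDH complex, had 77.4, 85.6 and 70.8 against 13.9 in i4g1 2. RPS4, a plastid ribosomal protein, had 110, 70.3 and 72.5 against 17.36. ATECP31 had 6.03 and 32.2 in ar21, so the ar21 libraries were themselves far apart. None of the 59 was called by either tool, with 25 at an unadjusted p under 0.05 in limma.

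In i4g1 1 alone, the 14 loci above ar21 were led by small non-coding RNAs that WT 2 also carried at high level. AT1G08115, a spliceosomal small nuclear RNA, had 46.2 and 22.7 in ar21, 198 in i4g1 1, 30.8 in i4g1 2 and 25.6 and 1162 in WT. AT1G15405, another RNA without a protein, had 330 and 259 in ar21, 1536 in i4g1 1, 340 in i4g1 2 and 379 and 19157 in WT. The unannotated transcripts CUFF.2781.1 and CUFF.2782.1 had 119 and 426 in i4g1 1, 35.6 and 121 in i4g1 2, and 1593 and 3203 in WT 2. LCR69, a small cysteine-rich protein gene, had 9.04 and 7.32 in ar21, 25.3 in i4g1 1 and 9.11 in i4g1 2, and AT2G05790, a glycosyl hydrolase gene, had 9.04, 6.59, 23.6 and 6.07. WT 2 was above i4g1 1 in 5 of the 14. None of the 14 was called by limma (0 at an unadjusted p under 0.05) or edgeR.

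The 59 loci below ar21 in i4g1 1 alone rested on few reads, with a median of 9 reads in that library, and 50 of them had fewer than 20. MAPKKK14, a protein kinase gene, had 21 and 24 reads in ar21, 4 in i4g1 1 and 33 in i4g1 2. AT4G36270, annotated as ATP binding, had 15 and 20 reads in ar21, 3 in i4g1 1 and 35 in i4g1 2. ABCG14, a transporter of the hormone cytokinin, had 13 and 15, then 3 and 32. PME68 (a pectin methylesterase), AT5G06940 (a receptor-like kinase) and MAP65-8 (a microtubule-binding protein) had 3 to 6 reads in i4g1 1 and 23 to 36 in i4g1 2. Low reads in i4g1 1 are part of what put a locus in this class, and neither tool called any of the 59 (11 at an unadjusted p under 0.05 in limma).

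Part of the salicylic acid defence list was higher in i4g1. Of 25 genes 10 reached the level for testing, 2 were lower in ar21 (PR1 and PR5) and none higher, and the median difference was -2.51. ACD6, LURP1 and PCC1 were under 10 in every WT and ar21 library and reached that level through i4g1 alone. The filter thus moves the median of the list towards i4g1. With edgeR 5 were lower (PR1, PR5, ACD6, LURP1 and BGL2). ACD6, an ankyrin protein of defence, had 5.02 and 5.86 in ar21 and 33.2 and 137 in i4g1 (-3.42, adjusted p = 0.0593), and LURP1 had 5.02 and 4.39 against 25.3 and 124 (-3.33, adjusted p = 0.0939). BGL2, the glucanase PR2, had 45.2 and 14.6 against 70.8 and 292 (-2.43, adjusted p = 0.136), and PCC1 had 4.02 and 4.39 against 14.9 and 60.7 (-2.59, adjusted p = 0.436). The receptor of salicylic acid NPR1 had 43.2 and 37.3 in ar21 and 34.1 and 43.8 in i4g1, a difference of 0.05 ± 0.25. ALD1, an enzyme of pipecolic acid synthesis, had 17.1 and 13.2 against 11.4 and 20.4, PBS3, an enzyme of salicylic acid synthesis, had 4.02 and 23.4 against 10.5 and 18.7, and the transcription factor WRKY18 had 25.1 and 22.7 against 22.7 and 20.8. Differences of these 4 were small beside their errors, and the other 15 genes of the list, with EDS16, PAD4, EDS1 and WRKY70 among them, were below the level for testing.

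The cold list held 4 genes lower in ar21 among 20 tested, none higher, with a median difference of -0.26, and edgeR added COR78. Scaled to the total without 18S and organelle reads, COR15A and COR15B stayed called, and COR47 (adjusted p = 0.0966) and CT-BMY (adjusted p = 0.0656) did not. The cold-induced chloroplast protein gene COR15A had 21.1 and 22.0 in ar21, 172 and 612 in i4g1, and 64.6 and 39.2 in WT (-3.85 ± 0.44, adjusted p = 0.00685). Its tandem copy COR15B had 7.03 and 8.78 in ar21, 57.7 and 188 in i4g1, and 21.9 and 14.001 in WT (-3.57 ± 0.47, adjusted p = 0.0108). The pair lies side by side on chromosome 2, and part of the reads could be shared. CT-BMY, the plastid beta-amylase that breaks starch down to maltose, had 26.1 and 34.4 in ar21 and 94.4 and 296 in i4g1 (-2.44 ± 0.41, adjusted p = 0.0329). The dehydrin gene COR47 had 129 and 119 in ar21, 213 and 314 in i4g1, and 107 and 95.2 in WT (-1.06 ± 0.18, adjusted p = 0.0395).

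The rest of the cold list did not pass. COR78, a desiccation and cold protein, had 27.1 and 33.7 in ar21 and 76.0 and 262 in i4g1 (-2.19, adjusted p = 0.118), and COR413-PM1 had 41.2 and 36.6 against 41.9 and 138, a difference carried by i4g1 2. LTI29 (-0.50), LTI30 (-0.47), COR414-TM1 (-0.35), KIN1 (-0.33), ATGRP7 (-0.19), KIN2 (-0.17) and STZ (-0.15) leaned the same way by less. CCR1, COR27 and COR314-TM2 lay between -0.05 and -0.01, and GRP2 (0.27), RHL41 (0.38), AT4G33980 (0.44) and RD29B (0.51) leaned to ar21. KIN1 and KIN2, the cold genes with the highest levels after ATGRP7, had 1064 to 1965 normalised counts in ar21 and 1419 to 2340 in i4g1. They are near-identical neighbours and may share reads. The factors CBF1, CBF2 and DREB1A, which switch on the cold genes through the C-repeat, were below the level for testing, with at most 2.17 normalised counts in any of the 4 libraries.

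The C-repeat (CCGAC, either strand) was looked for in the 250 bases before each annotated start, since COR15A is a classical gene of this element. The window of COR15A on TAIR10.1 (chr2:17712331-17712580, - strand) is shown with the matches in capitals, 5′ to 3′, CCGAC as such and its reverse complement as GTCGG. It ends at the base before the annotated start.
COR15A: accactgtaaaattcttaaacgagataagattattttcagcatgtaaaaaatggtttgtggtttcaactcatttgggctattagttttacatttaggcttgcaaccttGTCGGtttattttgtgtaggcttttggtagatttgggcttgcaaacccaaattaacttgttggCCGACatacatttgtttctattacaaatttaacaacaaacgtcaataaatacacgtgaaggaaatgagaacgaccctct
The window holds 2 matches, at 79 bases before the start on the gene's strand and at 142 bases on the other. COR15B, COR47 and CT-BMY had none in theirs. Of the protein-coding genes lower in ar21, 4 of 25 windows held the letters, against 13.5% of all 15189 windows of this length, and 6 of 20 did in the cold list. The letters were counted with no regard to overlap with other motifs.

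Of the nuclear genes for photosystems, antennae and Rubisco, 32 were tested, 2 were lower in ar21 (RBCS-1B and RBCS-3B) and none higher, with a median of -0.02. Of the 32, 22 leaned to i4g1. Both i4g1 libraries were above both ar21 libraries in 11 and below in 2 (20.8% and 21.5% over all loci). At an unadjusted p under 0.05 in limma, 6 were lower and 1 higher in ar21 (4.17% and 4.64% over all loci). RBCS-3B had 54.3 and 42.5 in ar21, 134 and 267 in i4g1 and 37.8 and 33.6 in WT (-1.96 ± 0.28, adjusted p = 0.0166). RBCS-2B, which lies between the other 2 genes on chromosome 5, had 7.03 and 5.12 in ar21 and 32.3 and 64.7 in i4g1 (-2.74 ± 0.51, adjusted p = 0.0557). The 3 genes are near-identical and may share reads. RBCS1A, the most abundant Rubisco small subunit gene here, had 9478 and 8678 in ar21 and 11862 and 11474 in i4g1 (-0.36 ± 0.16, adjusted p = 0.549). RCA, the activator of Rubisco, had 369 and 310 against 509 and 1277 (-1.25 ± 0.30, adjusted p = 0.138). Some antenna and photosystem genes, picked after their values were seen, had like values in the lines. LHCB4.2 had 995 and 920 against 996 and 946, PSBP-1 1903 and 1736 against 1893 and 1781, and LHCA4 2985 and 2782 against 2665 and 2792. None of the antenna or photosystem genes tested was called by limma, and edgeR called the 3 RBCS B genes and RCA and no other member.

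Markers of other tissues were read beside these genes. Of the 8 markers of shoot and silique tissue, 4 were tested and 1 was lower in ar21 (CA1), with a median difference of -0.39. Their summed level was 1844 and 1870 normalised counts in ar21 and 1845 and 2222 in i4g1. GL1, of leaf hairs, was at 0 in all 6 libraries. KAT1 and FMA of guard cells and AGL8 of the silique wall had at most 6.12 in any of the 4 libraries, with 0 to 2.01 in ar21 and 1.75 to 6.12 in i4g1. SUC2, of the phloem, had 1454 and 1538 in ar21 and 1294 and 1378 in i4g1. SUC2 made up most of the summed level in each of the 4 libraries, so the sum says little of the other markers. Both i4g1 libraries were above both ar21 libraries in 3 of the 4 tested markers and below in 1 (20.8% and 21.5% over all loci). The part of such tissue in the graded genes was not tested.

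No gene on the lists of the seed programmes passed the test. None of the tested genes was called in fatty acid synthesis (26 tested, median difference 0.07), triacylglycerol assembly and oil bodies (17, 0.05), maturation regulators (13, -0.06), storage proteins (5, -0.07), abscisic acid (16, 0.00) or sucrose breakdown, sugar transport and plastid glycolysis (15, -0.04). The same held for starch metabolism (18, -0.07), lipid breakdown (15, 0.04), sugar starvation (14, -0.10), chlorophyll synthesis (13, -0.03) and the circadian clock (19, 0.02). CT-BMY, the plastid beta-amylase called lower in ar21, was counted in the cold list and not in the starch list. With edgeR no gene of these lists was called either. In fatty acid synthesis both ar21 libraries were above both i4g1 libraries in 14 of 26 genes (21.5% over all loci). They were below both in 4 of 26 (20.8% over all loci). In sugar starvation the ar21 libraries were below both i4g1 libraries in 8 of 14 genes and above both in 2. In starch metabolism they were below both in 7 of 18 and above both in 2. At an unadjusted p under 0.05 in limma, 6 fatty acid synthesis genes were higher in ar21 and none lower, 2 genes of the sucrose list were higher, and 3 starch genes were lower, where 4.64% of all loci were higher and 4.17% lower at that threshold. The other lists had at most 1 such gene in a direction. The largest differences among these 6 genes were those of LACS9, a long-chain acyl-CoA synthetase, with 530 and 644 in ar21 and 371 and 499 in i4g1 (0.44, adjusted p = 0.425), and of AT5G10160, a dehydratase of the pathway, with 384 and 344 against 261 and 289 (0.40, adjusted p = 0.321). SUS3, a sucrose synthase, had 377 and 368 in ar21 against 273 and 232 in i4g1 (0.56, adjusted p = 0.136). These 3 were picked after their values were seen, and the smallest difference called at any level was 0.65.

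Seed coat and endosperm markers had no called gene by limma or edgeR. PME58, called higher in ar21, was not on the list of mucilage markers. At an unadjusted p under 0.05 in limma, 3 flavonoid, 3 mucilage and 1 endosperm marker were higher in ar21 and 1 mucilage marker was lower (4.64% and 4.17% over all loci). The flavonoid markers of the seed coat (10 tested, median 0.13) included BAN, which makes the tannin precursor, with 96.5 and 103 in ar21 and 64.7 and 68.6 in i4g1 (0.58, adjusted p = 0.302). The mucilage markers (17 tested) had a median of 0.05, the endosperm markers (5 tested) of 0.05. SUC5, a sucrose transporter of the endosperm, had 153 and 124 in ar21 and 82.2 and 93.7 in i4g1 (0.65, adjusted p = 0.557).

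Cytosolic ribosomal proteins (153 tested) had a median difference of 0.04 with no call by limma (18 higher and 9 lower at an unadjusted p under 0.05, against 4.64% and 4.17% over all loci), and 2 higher and 1 lower by edgeR. Nucleolar genes of ribosome assembly (22 tested) leaned to i4g1 in 21 of 22, with a median of -0.16 and no call by limma or edgeR, and both i4g1 libraries were above both ar21 libraries in 11 of 22 (20.8% over all loci). Chaperones of the endoplasmic reticulum (17 tested) leaned the same way in 14 of 17, with a median of -0.19 and no call by limma or edgeR. Both i4g1 libraries were above both ar21 libraries in 6 of these 17 and below in 1 (20.8% and 21.5% over all loci). At an unadjusted p under 0.05 in limma, 3 of the chaperones were lower and 1 higher in ar21. BIP3, the stress-inducible member, had 26.1 and 8.78 in ar21 and 35.0 and 37.3 in i4g1 (-1.19, adjusted p = 0.434).

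Heat shock genes (5 tested, median 0.24) and late embryogenesis abundant genes (16 tested, median 0.08) had no call, but several of them stood highest in ar21 2. The dehydrin gene COR47, called lower in ar21, was counted in the cold list. The small heat shock protein gene AT-HSP17.6A had 5.02 and 35.1 in ar21 and 1.75 and 1.302 in i4g1, and ATHSP17.4 had 23.1 and 106 against 21.0 and 30.8. The desiccation genes ATEM6 and ATECP31 had 14.1 and 69.5, and 6.03 and 32.2, in ar21. In i4g1 they had 6.99 and 4.77, and 12.2 and 2.17. These 4 were picked after their values were seen. In AT-HSP17.6A and ATEM6 the lower ar21 library also lay above both i4g1 libraries, while in ATHSP17.4 and ATECP31 it lay between them.

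**Figure D4:**
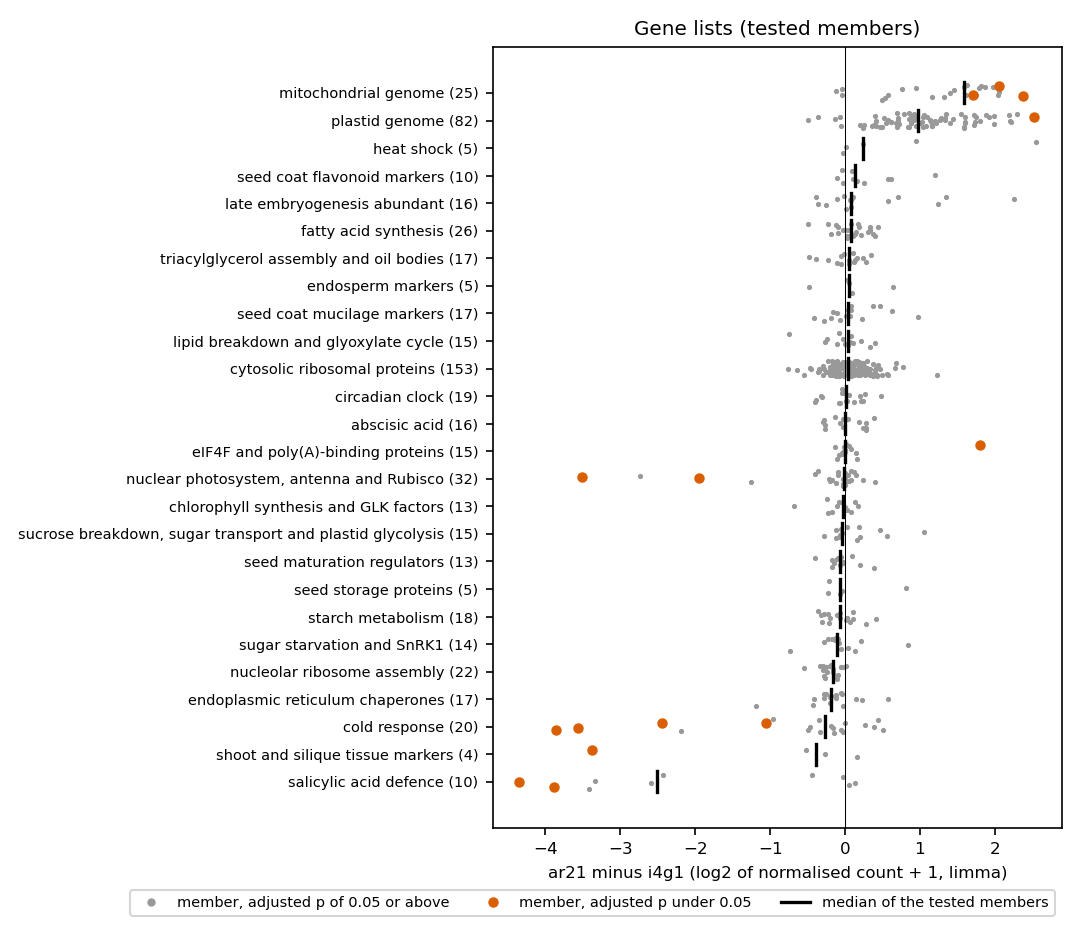
Difference between ar21 and i4g1 (log2, limma) of every tested member of each gene list, with filled orange points for called members, grey points for the others and a black bar at the median of the tested members, whose number follows the name of the list. Most medians lie within 0.2 of 0, and the organelle genomes lie to the right (medians 0.98 and 1.59). The defence list lies to the left (-2.51), and some of its members reached the level for testing through i4g1 alone.

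Most organelle loci leaned to ar21, with few calls: 77 of 82 plastid and 22 of 25 mitochondrial loci had a positive difference, against 7769 of the 15591 loci tested. Of the 82 plastid genome loci tested, 1 was called higher in ar21 (RBCL) and none lower, with a median difference of 0.98, and edgeR called 5 higher. Of 25 mitochondrial genome loci, 3 were called higher (MATR, COX2 and ORF25), with a median of 1.59, and edgeR called 5. With DESeq2 MATR was called, and COX2 (adjusted p = 0.0844), ORF25 (adjusted p = 0.156) and RBCL (adjusted p = 0.311) were not. RBCL and ORF25 also missed the threshold in limma on the 4 mutant libraries alone (adjusted p = 0.0577 for both), without WT 1 (0.0681 and 0.0608) and without WT 2 (0.0615 and 0.0542). RBCL, the large subunit of Rubisco, had 2231 and 1488 in ar21, 633 and 157 in i4g1, and 6342 and 8552 in WT (2.53 ± 0.45, adjusted p = 0.0426). MATR, a maturase that splices mitochondrial introns, had 63.3 and 32.9 in ar21, 10.5 and 6.07 in i4g1 and 71.9 and 84.0 in WT (2.37 ± 0.35, adjusted p = 0.0166). COX2, a subunit of cytochrome oxidase, had 123 and 63.0 in ar21 and 28.8 and 14.3 in i4g1 (2.06 ± 0.35, adjusted p = 0.0344). ORF25, annotated as a subunit of ATP synthase, had 151 and 102 in ar21 and 55.1 and 25.2 in i4g1 (1.71 ± 0.30, adjusted p = 0.0421).

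The 4 mutant libraries mostly stood in 1 order for the mitochondrial loci, and less often so for the plastid loci. Of the 25 mitochondrial loci, 19 ran ar21 1, ar21 2, i4g1 1, i4g1 2 from high to low, as did 40 of the 82 plastid loci. The share of all loci in this order was not counted. In 79 of the 82 plastid loci i4g1 2 was the lowest. Both i4g1 libraries were below both ar21 libraries in 45 of the 82 plastid loci and 19 of the 25 mitochondrial loci, against 21.5% over all loci. The plastid genome took 0.821% and 0.526% of the reads outside 18S in ar21 and 0.384% and 0.122% in i4g1, and the mitochondrial genome took 1.79% and 0.947% against 0.609% and 0.178%. The 18S share ran in the same order, and rRNA and organelle RNA lack long poly(A) tails. A change of organelle RNA in the seeds and a change in how much RNA without such tails entered the library cannot be told apart here. Of the 32 nuclear photosystem, antenna and Rubisco genes tested, none was called lower in i4g1, and RBCS-1B and RBCS-3B were called higher in i4g1. Nuclear genes of the respiratory chain were not read as a list. A link of nuclear genes to the organelle loci was not tested.

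**Figure D5:**
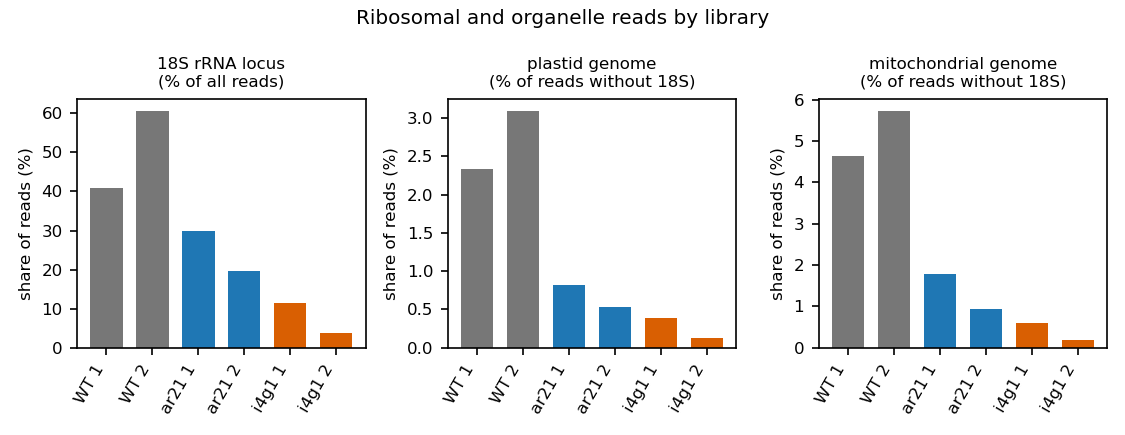
Share of reads in each library (bars, linear axes from 0) from the 18S rRNA locus, the plastid genome and the mitochondrial genome, the last pair as a share of the reads outside 18S. All 3 shares fall from ar21 1 over ar21 2 and i4g1 1 to i4g1 2, and the WT libraries stand above all 4.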

How the data were processed

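RNA of pooled developing seeds was sequenced in 6 libraries, 2 each of WT, ar21 and i4g1, of which the last 4 were compared. The authors deposited 1 table of normalised counts, a signal of reads divided by 1 size factor per library. The submitters' processing notes name STAR 2.4.0j, StringTie 1.0.3, HTSeq 0.6.0, DESeq2 1.12.4 and the build TAIR10, with no settings. The table has 34001 loci, 33055 of them matched to TAIR10.1. The labels do not say whether counting used strand. In every library all values above 0 were whole multiples of 1 step within 0.001 reads, and reads were recovered by that step. The intervals and floors cover counting error only.

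Values were tested as log2(normalised count + 1) in limma 3.58.1 (R 4.3.3) with an intensity trend and 6 libraries in 1 fit, two-sided, adjusted by Benjamini-Hochberg over the 15591 loci with a mean of at least 10. edgeR 4.0.16 (quasi-likelihood) and DESeq2 1.42.0 on recovered reads, other pseudocounts, filters, scalings and left-out libraries were alternatives. The fits were tested on simulated data.

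Named genes were eIFiso4G1, eIFiso4G2 and EIF4G, the 14 largest called differences in each direction, called list members, the 6 largest gaps of each one-library class and all tested cold and defence genes. Most others are marked as chosen after their values were seen. No rule given here covers neighbouring genes such as BGLU19, tissue markers such as BAN and SUC5, or BIP3, RCA, RBCS-2B and RBCS1A. The comparison, its members and the gene lists were chosen with earlier results of these data known. Cytosolic ribosomal protein genes were taken by their annotation as such, since few carry a subunit name. Promoter letters come from the RefSeq genome TAIR10.1.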

Additional observations from a re-analysis of the deposited data

How the results depend on the processing

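Against 18 loci higher and 26 lower in ar21, the counts moved by over 1.5 times in at least 1 direction under these settings: no filter on low values (0 and 2), scaling to the total without 18S and organelle reads (19 and 16, with the median of all loci moved to 0.06), limma without an intensity trend (0 and 0, with 685 and 482 at an unadjusted p under 0.05), edgeR (58 and 67), DESeq2 (30 and 49), and edgeR without ar21 1 (0 and 2), the last chosen after seeing the data. Leaving out 1 library gave 0 to 89 higher and 1 to 69 lower, where a lone library is assumed to vary like the other groups. The eIFiso4G1 difference stayed between 1.37 and 2.24 when 1 library was left out. It missed the threshold with no filter (1.80, adjusted p = 0.0864), with no trend (1.80, adjusted p = 0.412) and in edgeR without ar21 1 (1.73, adjusted p = 0.081). The cause was not tested for any of these.

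Deviations of same-numbered libraries correlated weakly over all loci, at -0.08 for WT and ar21, -0.03 for WT and i4g1 and 0.12 for ar21 and i4g1. In the organelle loci ar21 2 was below ar21 1 in 71 of 82 plastid and 25 of 25 mitochondrial loci. In the same loci i4g1 2 was above i4g1 1 in 0. Whether same-numbered samples shared a batch was not tested. With the replicate number as a block, 49 loci were higher and 32 lower, and all 44 calls were among them.

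The 82, 73 and 108 loci apart in both i4g1 libraries, in i4g1 1 alone and in i4g1 2 alone moved with the settings. A pseudocount of 5 gave 36 and 68 for the one-library classes, and asking the other library to lie within 0.25 log2 units gave 37 and 49. A mean of at least 50 gave 26, 7 and 37, no filter gave 338, 352 and 492, and a gap of 0.58 log2 units gave 271, 503 and 478. Leaving out 1 ar21 library gave 135 to 215, 138 to 161 and 171 to 181. All 44 called loci kept their sign under every setting that tested them (35 of them with a mean of at least 50). The balance of directions did not hold: among loci apart in both i4g1 libraries, 50 above and 32 below ar21 became 104 and 167 with a gap of 0.58 log2 units and 81 and 134 without ar21 2, and in i4g1 2 alone 49 and 59 became 332 and 160 with no filter.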

Other observations

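Some loci lower in i4g1 than in ar21 were raised over WT in both lines. Of the 32 loci below ar21 in both i4g1 libraries, 15 had ar21 above WT and 5 at least 4-fold above it. These 5, chosen after their values were seen, had adjusted p under 0.05 in edgeR and not in limma. With DESeq2 ATPMEPCRD passed (adjusted p = 0.000141) and the others did not, with AtGH9B5 at 0.112, LTP10 at 0.143, AtRLP55 at 0.229 and FLA5 at 1.00. AtRLP55, a receptor-like protein gene, had 7.31 and 28.002 normalised counts in WT, 492 and 502 in ar21, and 135 and 192 in i4g1 (log2 difference 1.62, adjusted p = 0.173 in limma and 0.00452 in edgeR). ATPMEPCRD, a pectin methylesterase gene, had 11.0 and 25.2 in WT, 336 and 296 in ar21, and 120 and 145 in i4g1 (1.25, adjusted p = 0.136 in limma and 0.00552 in edgeR). LTP10, a lipid transfer protein gene, had 18.3 and 11.2 in WT, 81.4 and 65.1 in ar21, and 29.7 and 29.5 in i4g1. The endoglucanase gene AtGH9B5 had 8.53 and 8.40 in WT, 51.2 and 41.7 in ar21, and 16.6 and 11.7 in i4g1. FLA5, a fasciclin-like surface protein gene, had 8.53 and 50.4 in WT, 128 and 124 in ar21, and 17.5 and 47.3 in i4g1. For FLA5 the WT and i4g1 libraries overlapped, and for AtRLP55 and ATPMEPCRD both lines lay above both WT libraries.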
